A study of Saccharomyces cerevisiae with 4 samples.

Results

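The 2 standard phosphate arrays of Saccharomyces cerevisiae each measured culture RNA against a common reference RNA. The gene expression ratios described here are those of the sample over that reference. These arrays are 2 of the 4 of the series, and they were chosen by the phosphate concentration in their titles, with no measured value involved. Of the 6388 gene probes on the array, 4354 (68.2%) lay on the same side of 0 on both arrays, 2210 (34.6%) above and 2144 (33.6%) below. Calls were kept only for these, while list medians and the adjustment of p-values ran over all probes measured.

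The sample cells were BY4742, a laboratory haploid with the MATalpha mating type that lacks functional HIS3, LEU2, LYS2 and URA3. Their plasmid, YCpLac111, is kept through a centromere and bears LEU2. They were grown for 2 cell doublings in a synthetic complete medium made without phosphate, with glucose as carbon source, to which 10 mM (10000 uM) phosphate was added. The low phosphate cultures of the same series received 75 uM and were otherwise described in the same way. Their array titles carry another number than those of standard phosphate. Phosphate and any difference marked by that number cannot be told apart. The reference was RNA from 1 large culture of wild-type BY4742, for which no plasmid is named. It was grown in synthetic complete medium made from a commercial yeast nitrogen base. Medium base, plasmid, culture and reference pool therefore all differ between the channels and cannot be told apart, and the labels do not say whether leucine was left out of either medium. A ratio against the single pool leaves out the reference's own spread.

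Each array has 2 colours. The sample carried Cy3 and the reference Cy5 on array a, while array b had the opposite dyes, so that culture and dye cannot be separated. The deposited design text describes independent cultures on separate arrays, whereas the titles of both standard phosphate arrays carry the same number and the methods of the study speak of a dye exchange for every biological replicate. Should both arrays hold RNA of 1 culture, the tests below would rest on technical spread alone. Values are log2 of sample over reference after background correction and loess normalization, with both spots of a probe averaged, and each mean over the 2 arrays is followed by its moderated standard error from limma. Across the 6388 probes the ratios of the 2 arrays correlated at 0.66 and 54 probes differed between them by over 1.7-fold. The reference signal was lower on array b, where 1719 probes had a reference signal under 2 times the local background, against 626 on array a. On array a, 161 probes had a mean signal above 32768, where the scanner nears saturation, against 2 on array b.

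In total, 570 probes (8.92%) passed an adjusted p of 0.05 on the 2 arrays (limma, Benjamini-Hochberg over 6388 probes), 417 higher (6.53%) and 153 lower (2.4%) in the sample. Of these, 36 were over 1.7-fold higher and 17 over 1.7-fold lower. The smallest mean among them was 0.28 in either direction, so that most calls were small differences. Fitted on all 4 arrays, where the prior degrees of freedom of the variance were 1.98 in place of 6.43, 5 genes (0.0783%) passed, namely BIO2, BIO3, BIO4, VHT1 and LEU1. Under 8 other ways of background correction, normalization, scaling or variance estimation on the same 2 arrays, 92 of the higher and 15 of the lower probes passed each time. With these, the removal of dim probes makes up the 9 alternative settings over which ranges are given below. Centring each array on its median, with no correction that depends on intensity, is not among them, and with it 0 probes passed (limma), against 87 on the same side at an unadjusted p under 0.05. Normalization on the external spike-in spots moved the median of all genes from -0.0016 to 0.16 and gave 388 higher and 18 lower probes, so that directions below are relative to the median gene.

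**Figure D1:**
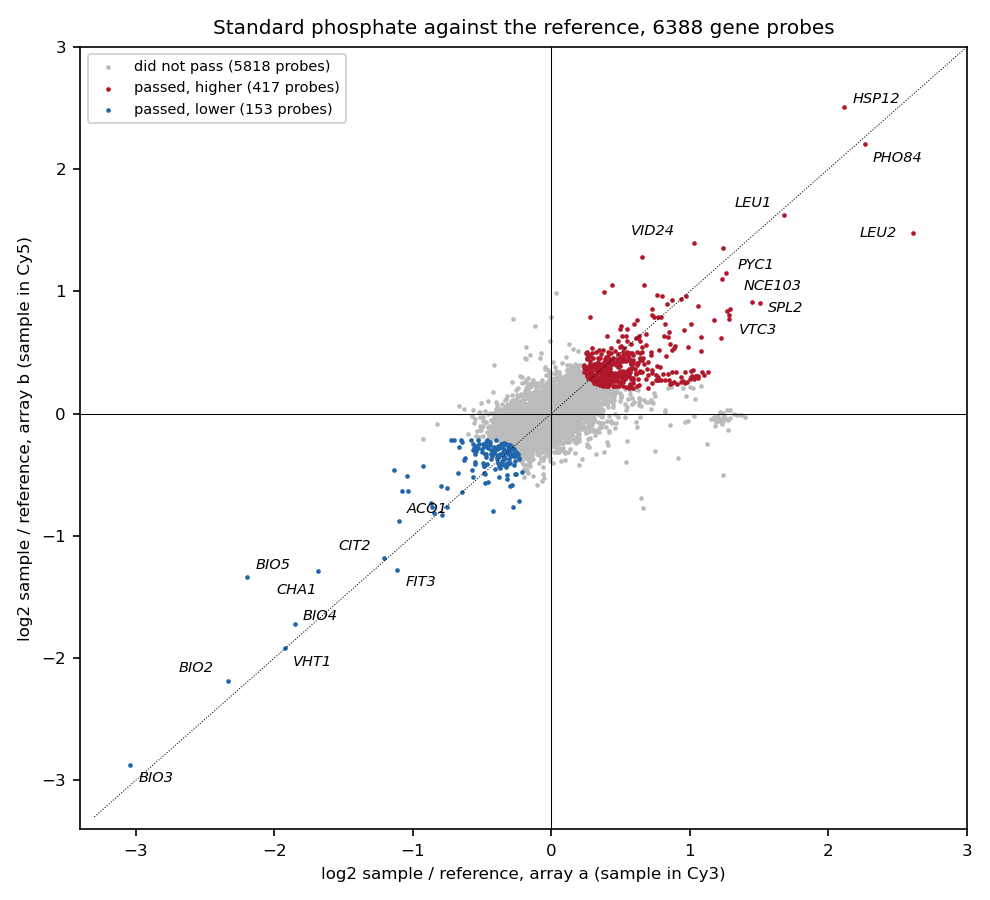
Log2 ratio of sample over reference on array a (horizontal axis) and array b (vertical axis) for 6388 gene probes, with the dotted line marking equal values. The 417 probes that passed as higher and the 153 that passed as lower are coloured, and BIO3 and BIO2 lie lowest, at -3.04 and -2.33 on array a.

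Biotin is a vitamin that laboratory yeast takes up from the medium or makes from late precursors, and it serves as the prosthetic group of carboxylases. When biotin is short, yeast raises the genes for its uptake and for the last steps of its synthesis through the regulator Vhr1 and other factors. The lists of genes used below were fixed with earlier results of these data known, and a list is described by its counts and its median. All 6 measured genes of biotin uptake and synthesis were below 0 on both arrays, against 33.6% of all probes, and 5 of the 6 passed the test as lower, against 2.4% of all probes. Their median was -1.85, whereas that of all probes was -0.0016. BIO3, which encodes the aminotransferase that forms diaminopelargonate, was at -3.04 (array a) and -2.88 (array b), a 7.78-fold lower level (mean -2.96 ± 0.08, adjusted p = 4.47e-06). BIO4, which encodes dethiobiotin synthetase, the next enzyme, was at -1.85 and -1.72 (mean -1.79 ± 0.07, adjusted p = 2.87e-05). BIO2, which encodes biotin synthase, was at -2.33 and -2.19 (mean -2.26 ± 0.07, adjusted p = 9.68e-06). BIO2, BIO3 and BIO4 were thus lower on both dye orientations, by more than the difference between the arrays.

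The transporter genes for biotin and for its precursors were lower as well. VHT1, which encodes the proton symporter for biotin, was at -1.92 and -1.91, a 3.78-fold lower level with nearly equal values on the arrays (mean -1.92 ± 0.07, adjusted p = 1.44e-05). BIO5, which encodes the transporter for biotin precursors, was at -2.20 and -1.34 (mean -1.77 ± 0.17, adjusted p = 0.00225). In the sample channel BIO5 was under 2 times the background on both arrays, so that it is better given as at least 2.50-fold lower. Such bounds were computed here against the dimmest signal of any probe clearly above background. VHR1, the regulator, was at -0.12 and -0.09 and did not pass (adjusted p = 0.37). BIO3, BIO4 and BIO5 lie next to each other on chromosome XIV, and their means ranged from -2.96 to -1.77.

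Enzymes that carry biotin did not follow one direction. PYC1, which encodes a cytosolic pyruvate carboxylase that makes oxaloacetate, was at 1.26 and 1.15 (mean 1.20 ± 0.07, adjusted p = 0.000237). ACC1, which encodes the acetyl-CoA carboxylase of fatty acid synthesis, was at 0.64 and 0.50 (mean 0.57 ± 0.07, adjusted p = 0.007). BPL1, which encodes the ligase that attaches biotin to these enzymes, was at -0.34 and -0.42 (mean -0.38 ± 0.07, adjusted p = 0.022). Hence 2 of the 6 measured members passed as higher and 1 as lower, against 6.53% and 2.4% of all probes. PYC2, HFA1 and ARC1, a second pyruvate carboxylase, the mitochondrial acetyl-CoA carboxylase and a biotin-carrying tRNA-binding protein, had means between -0.01 and 0.02.

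The low phosphate arrays, hybridised against the same reference, also had biotin ratios far below 0. BIO3 was at -2.82 and -2.72 there, BIO2 at -2.20 and -2.53, BIO4 at -1.55 and -1.56, and VHT1 at -2.49 and -2.60. The difference of low minus standard phosphate was 0.19 ± 0.11 for BIO3 and -0.62 ± 0.09 for VHT1, and neither passed (adjusted p = 0.447 and 0.397, limma on all 4 arrays). For PYC1 the low phosphate arrays stood at 0.05 and 0.38, below both standard phosphate arrays, with a difference of -0.99 ± 0.15 that did not pass (adjusted p = 0.398). In that comparison 1 of the 6388 probes (0.0157%) passed, while the ranges of the 2 groups did not overlap for 53.3% of all probes. A lack of overlap is therefore common here.

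**Figure D2:**
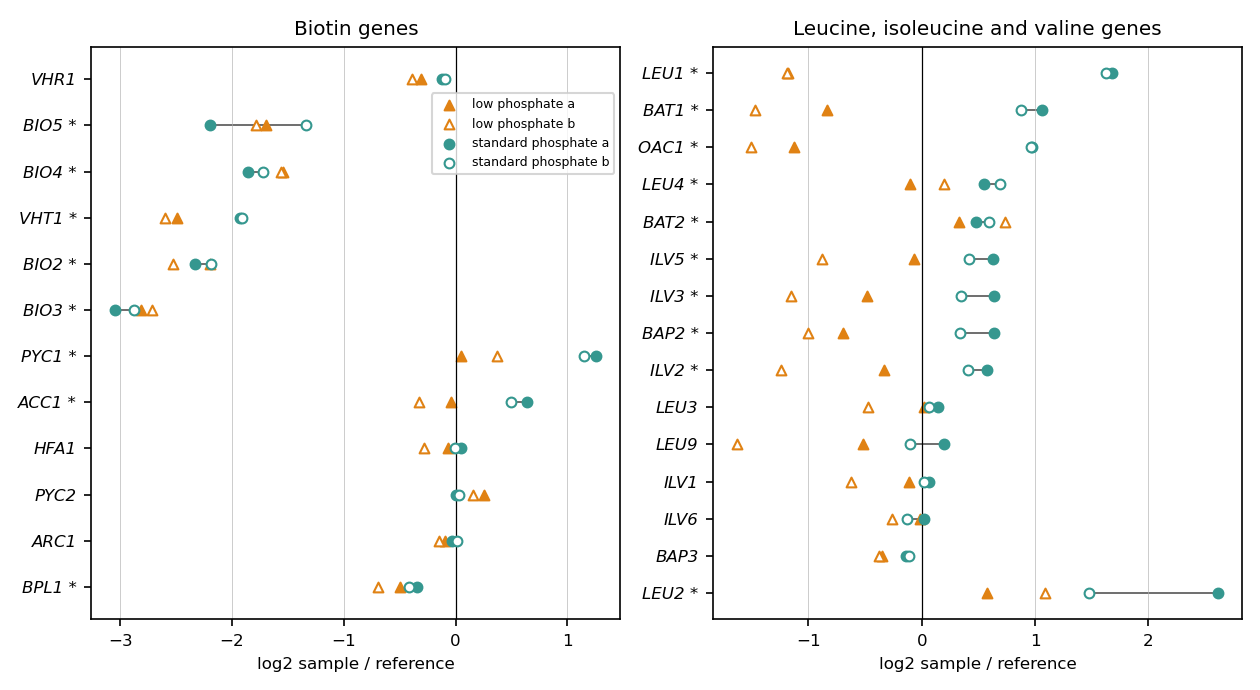
Log2 ratio of sample over reference (horizontal axis) for each biotin gene (left) and each gene of leucine, isoleucine and valine metabolism with LEU2 (right). Circles are the standard phosphate arrays a (filled) and b (open), triangles the low phosphate arrays, and an asterisk marks genes that passed on the 2 standard phosphate arrays. BIO5, BIO4, VHT1, BIO2 and BIO3 are far below 0 in both groups, whereas LEU1 lies at 1.65 in standard phosphate and below -1 in low phosphate.

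Leucine, isoleucine and valine share enzymes in yeast. Leucine branches off through isopropylmalate, an intermediate that, with the regulator Leu3, turns on many genes of the pathway. The strain cannot make leucine without the plasmid-borne LEU2. LEU2, which encodes isopropylmalate dehydrogenase, was at 2.61 (array a) and 1.48 (array b; mean 2.05 ± 0.22, adjusted p = 0.00321), which are far apart. Its reference signal was only 1.44 and 1.09 times the background, so that the level was at least 2.65-fold higher. The probes of the other deleted genes had means of -0.07 for LYS2, 0.01 for URA3 and 0.04 for HIS3, and none passed. URA3 was near background in both channels of both arrays. The LYS2 signals were 2.73 (sample) and 3.72 (reference) times the background on array a, and 1.66 and 1.53 times on array b. HIS3, of which this strain retains a part, was above background throughout.

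Of the 14 other measured genes of this pathway, 11 were above 0 on both arrays, against 34.6% of all probes, and 1 below. As higher passed 9, against 6.53% of all probes, none passed as lower, and their median was 0.49. LEU1, which encodes isopropylmalate isomerase, was at 1.68 and 1.63, a 3.15-fold higher level (mean 1.65 ± 0.07, adjusted p = 3.1e-05). OAC1, which encodes a mitochondrial carrier of oxaloacetate that also exports isopropylmalate, was at 0.97 on both arrays (mean 0.97 ± 0.07, adjusted p = 0.000602). BAT1, which encodes the mitochondrial branched-chain aminotransferase, was at 1.06 and 0.88 (mean 0.97 ± 0.08, adjusted p = 0.00102). These values were on the same level on both dye orientations, and they stood out from the rest of the pathway.

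The remaining members that passed lay within a narrow range. LEU4, which encodes isopropylmalate synthase, had a mean of 0.62 ± 0.07, and BAT2, the cytosolic aminotransferase gene, one of 0.54 ± 0.07. The acetolactate synthase gene ILV2 was at 0.57 and 0.41, the reductoisomerase gene ILV5 at 0.63 and 0.42, the dehydratase gene ILV3 at 0.64 and 0.35, and the permease gene BAP2 at 0.64 and 0.34. Array a gave the higher value for each of ILV2, ILV5, ILV3 and BAP2. LEU3, the regulator, LEU9, a second isopropylmalate synthase, ILV1, threonine deaminase, and ILV6, the regulatory subunit of acetolactate synthase, had means between -0.05 and 0.10 and did not pass, and BAP3, a related permease, was at -0.14 and -0.11. The number that passed in the list ranged from 5 to 9 over 9 alternative settings on the same arrays.

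In low phosphate the pathway stood on the other side of the reference for several of these genes. LEU1 was at -1.18 and -1.19, and its difference of low minus standard phosphate of -2.84 ± 0.09 was the one that passed in the whole table (adjusted p = 0.0349). OAC1 was at -1.12 and -1.51, and BAT1 at -0.84 and -1.48. Their differences of -2.29 ± 0.16 and -2.13 ± 0.25 did not pass (adjusted p = 0.213 and 0.279). LEU2 stayed above 0 at 0.57 and 1.09. BAT2, at 0.33 and 0.73, overlapped with its standard phosphate values.

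Other vitamins moved less. Vitamin B6, in the form of pyridoxal phosphate, is made in yeast by the paired proteins of the SNZ and SNO families. SNZ1, which encodes the synthase subunit, was at 0.94 and 0.93 (mean 0.93 ± 0.07, adjusted p = 0.00072), and its neighbour on chromosome XIII, SNO1, which encodes the glutaminase subunit, was at 0.55 and 0.59 (mean 0.57 ± 0.07, adjusted p = 0.006). The reference signal of SNO1 was 1.56 times the background on array b. In low phosphate both were below 0, SNZ1 at -0.44 and -0.35 and SNO1 at -0.48 and -0.38. Of the 7 measured members of the vitamin B6 list, 6 were above 0 on both arrays, against 34.6% of all probes. As higher passed 2, against 6.53% of all probes, and the median was 0.19. SNZ3 and SNO2, whose probes could also detect their near-identical copies, were at means of 0.24 and 0.19 and did not pass.

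In the synthesis of NAD from tryptophan, BNA1, which encodes hydroxyanthranilate dioxygenase, was at 0.73 and 0.81 (mean 0.77 ± 0.07, adjusted p = 0.00158), and BNA2, which encodes the first enzyme, at 0.40 and 0.24 (adjusted p = 0.042). Both channels of BNA2 were under 2 times the background on array b, and it passed in 4 of 13 alternatives. BNA1 and BNA2 were the only 2 of 15 measured members that passed, and the median of the list was -0.05. Riboflavin, pantothenate and folate genes each held 1 gene that passed, of 9, 10 and 15 measured members. Such counts are close to the 6.53% of all probes that passed as higher. RIB5 (riboflavin synthase) had a mean of 0.35, CAB5 (the last enzyme of coenzyme A synthesis) one of 0.36 and MTD1 (a methylenetetrahydrofolate dehydrogenase) one of 0.35. Of the 15 measured thiamine genes, 7 were above and 4 below 0 on both arrays, and the median was 0.00. The probe named PHO3, an acid phosphatase gene that serves thiamine uptake and was counted in this list, was the 1 that passed, at 0.62 and 0.40. That count is again close to the share over all probes. A second probe of PHO3, with the dimmer signal, was at 0.47 and 0.18 and did not pass. The low phosphate values of these probes disagreed, at 2.15 and 3.69 for the first and 0.47 and -1.19 for the second. PHO5, an acid phosphatase gene of the phosphate list, had no probe named here. Whether a PHO3 probe also detects PHO5 was not tested. THI4, which encodes the thiazole synthase, was at -0.09 and 0.02, on opposite sides of 0. INO1, which encodes inositol phosphate synthase, was slightly lower at -0.29 and -0.35 (mean -0.32 ± 0.07, adjusted p = 0.035), and lay above 0 on both low phosphate arrays.

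Among the lists for other amino acids, that of arginine had the largest share of calls in the fit reported. Of the 10 measured members 8 were above 0 on both arrays, 5 passed as higher, against 6.53% of all probes, and the median was 0.29 (0.31 on array a, 0.17 on array b). ARG1, which encodes argininosuccinate synthetase, was at 0.82 and 0.73 (mean 0.78 ± 0.07, adjusted p = 0.00158). ARG4 and ARG7, the genes for argininosuccinate lyase and ornithine acetyltransferase, both had means of 0.42 ± 0.07, while ARG3, which encodes ornithine carbamoyltransferase, and ORT1, the mitochondrial ornithine carrier gene, were at 0.31. The arginine-degrading genes CAR1 and CAR2 lay on opposite sides of 0 on the arrays. Over the 9 alternative settings 1 to 5 members passed. With a normexp offset of 0 it was 1 of 10, against 2 of 15 genes of the aromatic amino acids. In low phosphate ARG1 was at -0.37 and -0.63 and ARG3 at -0.75 and -0.87.

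ARO9 and ARO10 encode the aromatic aminotransferase and the decarboxylase that break down tryptophan, phenylalanine and tyrosine to fusel alcohols. ARO10 was at 1.24 and 1.10 (mean 1.17 ± 0.07, adjusted p = 0.000281), and its reference signal was near background, so that it was at least 1.81-fold higher. ARO9 was at 0.77 and 0.97 (mean 0.87 ± 0.08, adjusted p = 0.00158), and at 1.01 and 1.62 in low phosphate. Its reference signal was 1.51 times the background on standard phosphate array b. The other 13 members of the aromatic list, which are mostly enzymes of synthesis, had means between -0.14 and 0.25 and none passed. SER3, which encodes the first enzyme of serine synthesis, was at 1.28 and 0.81 (mean 1.05 ± 0.11, adjusted p = 0.00321), while its paralogue SER33 was at 0.08 and -0.08. CHA1, which encodes the deaminase that breaks down serine and threonine, was 2.80-fold lower, at -1.68 and -1.29 (mean -1.49 ± 0.10, adjusted p = 0.000408). In low phosphate CHA1 was at 0.21 and 0.33, above 0 on both arrays (difference of low minus standard phosphate 1.76 ± 0.17, adjusted p = 0.219).

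GDH1, which encodes the glutamate dehydrogenase that fixes ammonium, was at 0.73 and 0.86 (mean 0.79 ± 0.07, adjusted p = 0.00158), and ASN1, an asparagine synthetase gene, had a mean of 0.36 ± 0.07. HIS7, of histidine synthesis, passed at 0.28 and 0.32, but in only 1 of 14 alternatives. No lysine gene of 8 passed, and their median was -0.03. Of the 26 measured sulfur genes 14 were below and 4 above 0 on both arrays, with a median of -0.04 that lay above 0 after spike-in normalization. MET16, a reductase gene of sulfate assimilation, passed as higher at a mean of 0.35, and CYS3, the cystathionine lyase gene, as lower at -0.32. Among 21 amino acid permeases BAP2 passed as higher, and GNP1 and DIP5, which carry glutamine and acidic amino acids, as lower, at -0.30 and -0.29. Of all probes 6.53% passed as higher and 2.4% as lower. The permease calls were not stable, since 0 to 5 members passed as lower over the 9 alternative settings.

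**Figure D3:**
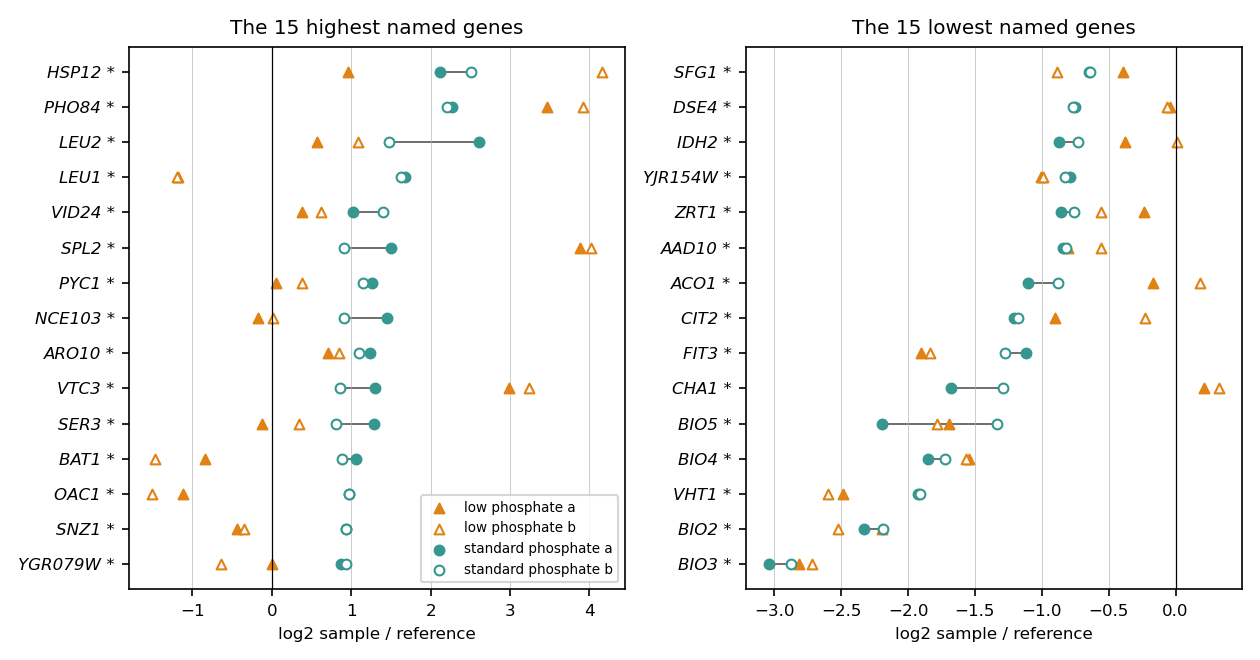
The 15 highest and 15 lowest named genes by the smaller of their 2 absolute log2 ratios, with the log2 ratio of sample over reference on the horizontal axis and the symbols as in the plot of biotin and leucine genes. HSP12 and PHO84 are above 2 on both standard phosphate arrays, and the biotin genes BIO2 and BIO3 are below -2.

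Yeast takes up iron bound to siderophores with the help of FIT cell wall proteins and through reductases and transporters under the regulator Aft1. FIT3 was at -1.12 and -1.28, a 2.29-fold lower level (mean -1.20 ± 0.08, adjusted p = 0.000281), and its neighbour FIT2 was at -0.42 and -0.80 (mean -0.61 ± 0.10, adjusted p = 0.014). FET4, which encodes a low-affinity iron transporter, and TIS11, which encodes a protein that brings about the decay of mRNAs for iron-using proteins, were also lower, with means of -0.41 and -0.30. In the other direction, the siderophore transporter gene SIT1 was at 0.57 and 0.22 and the reductase gene FRE1 at 0.76 and 0.28, with array a higher in both. FET3 and FTR1, the high-affinity uptake pair, had means of 0.01 and -0.24 and did not pass.

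Of the 24 measured iron genes, 12 were thus below and 6 above 0 on both arrays, against 33.6% and 34.6% of all probes. As lower passed 4 and as higher 2, against 2.4% and 6.53% of all probes. Over the alternative settings 1 to 6 passed as lower and 0 to 2 as higher. Their median of -0.07 lay above 0 after spike-in normalization. Low phosphate values lay further below the reference for several of them, with FET3 at -1.38 and -1.72, SIT1 at -1.92 and -2.26 and FIT3 at -1.90 and -1.84. The difference for FET3 and SIT1 did not pass (adjusted p = 0.219 for each). ZRT1, which encodes the high-affinity zinc transporter, was at -0.86 and -0.76 (mean -0.81 ± 0.07, adjusted p = 0.0015). It was the 1 of 13 zinc genes that passed, while 2.4% of all probes passed as lower. ZAP1, the zinc regulator gene, lay on opposite sides of 0, and the median of the list, -0.06, also lay above 0 after spike-in normalization. None of the 12 copper and manganese genes passed.

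Cells sense phosphate through the PHO pathway, in which the factor Pho4 turns on transporters, phosphatases and polyphosphate synthesis when phosphate is short. With 10 mM phosphate added, 15 of the 18 measured genes of this list were above 0 on both arrays, against 34.6% of all probes, and 8 passed as higher, against 6.53%. PHO84, which encodes the high-affinity phosphate transporter, was at 2.26 and 2.21, a 4.71-fold higher level (mean 2.24 ± 0.07, adjusted p = 9.68e-06). SPL2, which encodes a protein that acts on low-affinity phosphate transport, was at 1.504 and 0.90 (mean 1.20 ± 0.13, adjusted p = 0.00321). The reference signal of SPL2 was 1.61 times the background on array b. VTC3, which encodes a subunit of the polyphosphate synthase of the vacuole, was at 1.29 and 0.85 (mean 1.07 ± 0.11, adjusted p = 0.00231). PHO84 was therefore about equal on both arrays, whereas SPL2 and VTC3 were higher on array a.

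Smaller values were seen for PHO12, an acid phosphatase gene whose probe may also detect PHO11, at 1.17 and 0.77, and for PHM6 at 0.72 and 0.48. PHO89, a sodium-coupled phosphate transporter gene, VTC1, a further subunit gene, and PHO81, the inhibitor of the Pho85 kinase, had means of 0.46, 0.44 and 0.39. The genes PHO8, PHO86, GDE1, VTC2, VTC4 and PPN1 had means between 0.11 and 0.23 and did not pass, and the median of the list was 0.23. Each of the 8 genes that passed was higher still in low phosphate, on both arrays. The ranges of the 2 groups did not overlap, in either direction, for 53.3% of all probes. PHO84 was at 3.47 and 3.92 there (difference 1.46 ± 0.18, adjusted p = 0.32), and SPL2 at 3.89 and 4.02 (difference 2.75 ± 0.23, adjusted p = 0.219).

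The mating genes served as a check of the strain label, since sample and reference were both of mating type alpha. All 4 alpha-specific genes were brighter than 2 times the background in both channels of both arrays. They also had ratios above 0 on both arrays, against 34.6% of all probes. MF(ALPHA)2, a pheromone gene, and STE3, the receptor for the a pheromone, passed at means of 0.40 and 0.37. Thus 2 of 4 passed as higher, against 6.53% of all probes. MF(ALPHA)1 and SAG1 had means of 0.16 and 0.20. Of the 4 alpha-specific genes, 1 was near saturation on array a. None of the 7 genes specific to mating type a passed, their means lay between -0.13 and 0.05, and all 7 were under 2 times the background in a channel of at least 1 array. The same held for 1725 of all 6388 probes, so that it does not show that these transcripts were absent. In the list of haploid and pheromone response genes 1 of 20 passed, GPA1, the G protein subunit gene, at 0.43 and 0.50. That count is close to the 6.53% of all probes that passed as higher. Of the 14 genes of meiosis and sporulation, 13 were likewise near background in a channel. HOP1, of the meiotic chromosome axis, passed at 0.47 and 0.27, with each channel near background on 1 array. Over the alternative settings 0 to 2 of the alpha-specific genes passed.

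Yeast raises a broad set of stress genes through Msn2 and Msn4 when growth slows or conditions worsen, and a separate set of chaperone genes through the heat shock factor Hsf1. HSP12, which encodes a small membrane-binding stress protein, was at 2.11 and 2.51, a 4.96-fold higher level (mean 2.31 ± 0.10, adjusted p = 3.18e-05). It did not stand for the list, in which 13 of 34 genes were above 0 on both arrays, 4 below and 17 on opposite sides. Of all probes 34.6% were above and 33.6% below 0 on both. The median of the list was -0.14 on the first array (a) and 0.19 on the second (b). The genes that also passed as higher were HXK1 (hexokinase) at 0.65 and 1.28, GPH1 (glycogen phosphorylase) at 0.67 and 1.06, YGP1 (a secreted glycoprotein) at 0.62 and 0.76, MSC1 at 0.44 and 1.05 and HOR7 at 0.38 and 0.996. Array b gave the higher value for each of these 6 genes.

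The other way went HSP26, GPD1 and SOD2. HSP26, which encodes a small heat shock chaperone, was at -1.04 and -0.51 (mean -0.78 ± 0.12, adjusted p = 0.012), GPD1, of glycerol synthesis, at -0.49 and -0.25, and SOD2, the mitochondrial superoxide dismutase gene, at -0.45 and -0.23. In the fit reported 6 of the 34 stress genes passed as higher and 3 as lower, against 6.53% and 2.4% of all probes. Over the alternative settings 4 to 7 members passed as higher and 0 to 4 as lower. In low phosphate the stress genes were further apart between arrays, with HSP12 at 0.95 on one array (a) and 4.16 on the other (b).

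Most genes of the Hsf1 chaperone list lay below 0. Of the 17 measured genes of this list 16 were below 0 on both arrays, against 33.6% of all probes, and none above. As lower passed 7, against 2.4% of all probes, and the median was -0.29 (-0.38 on array a, -0.18 on array b). After spike-in normalization 2 of the 17 were below 0 on both arrays and 1 passed. KAR2, which encodes the chaperone of the endoplasmic reticulum, was at -0.63 and -0.38 (mean -0.50 ± 0.08, adjusted p = 0.015). HSP82 and HSC82, the genes for Hsp90, had means of -0.34 ± 0.07 and -0.29 ± 0.07, and the cochaperone genes CPR6 and AHA1 means of -0.47 and -0.46. HSP30, which was counted in this list but encodes a plasma membrane protein and no chaperone, was at -0.93 and -0.43. Its sample channel was dim, and it was at least 1.26-fold lower. These were small differences that depended on the processing, since 0 to 10 members passed over the 9 alternative settings. Their low phosphate values lay near 0, and the median was -0.03 and 0.07 on the 2 arrays. CNS1, an Hsp90 cochaperone gene outside the list, went the other way in standard phosphate and passed as higher, at 0.57 and 0.50 (adjusted p = 0.0074). In the antioxidant list 2 of 21 passed as lower, against 2.4% of all probes. They were the peroxiredoxin gene TSA1 at -0.47 and -0.41 and the NADPH dehydrogenase gene OYE2 at -0.28 and -0.33. Over the 9 alternative settings 0 to 4 antioxidant genes passed as lower.

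The first steps of the citric acid cycle, which also supply 2-oxoglutarate for glutamate synthesis, were lower. The list also counts CIT2, which encodes the peroxisomal citrate synthase and so lies outside the mitochondrial cycle. CIT2 was the lowest member, at -1.20 and -1.18 (mean -1.19 ± 0.07, adjusted p = 0.000209). ACO1, which encodes aconitase, was at -1.10 and -0.88 (mean -0.99 ± 0.08, adjusted p = 0.00106). IDH2 and IDH1, the subunit genes of isocitrate dehydrogenase, were at -0.87 and -0.73 and at -1.14 and -0.46. The means of both subunits were -0.80, although IDH1 differed more between the arrays. CIT1, the mitochondrial citrate synthase gene, and SDH2, of succinate dehydrogenase, passed with means of -0.43 and -0.41. LSC2, a succinyl-CoA ligase subunit gene, was higher at a mean of 0.41.

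Altogether 6 of the 16 measured genes of this list passed as lower, against 2.4% of all probes, and 1 as higher, against 6.53%. The median was -0.26, and 3 to 8 passed as lower over the alternative settings. In all 10 were below 0 on both arrays (33.6% of all probes were), against 4 after spike-in normalization. IDH1 adjoins NCE103, a carbonic anhydrase gene, on chromosome XIV, and NCE103 was on the other side of the reference at 1.45 and 0.91 (mean 1.18 ± 0.12, adjusted p = 0.0027). In low phosphate ACO1 was at -0.17 and 0.18, CIT1 at 0.22 and 1.27 and SDH2 at 0.40 and 1.21, all above their standard phosphate values. Such a lack of overlap, in either direction, was found for 53.3% of all probes.

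**Figure D4:**
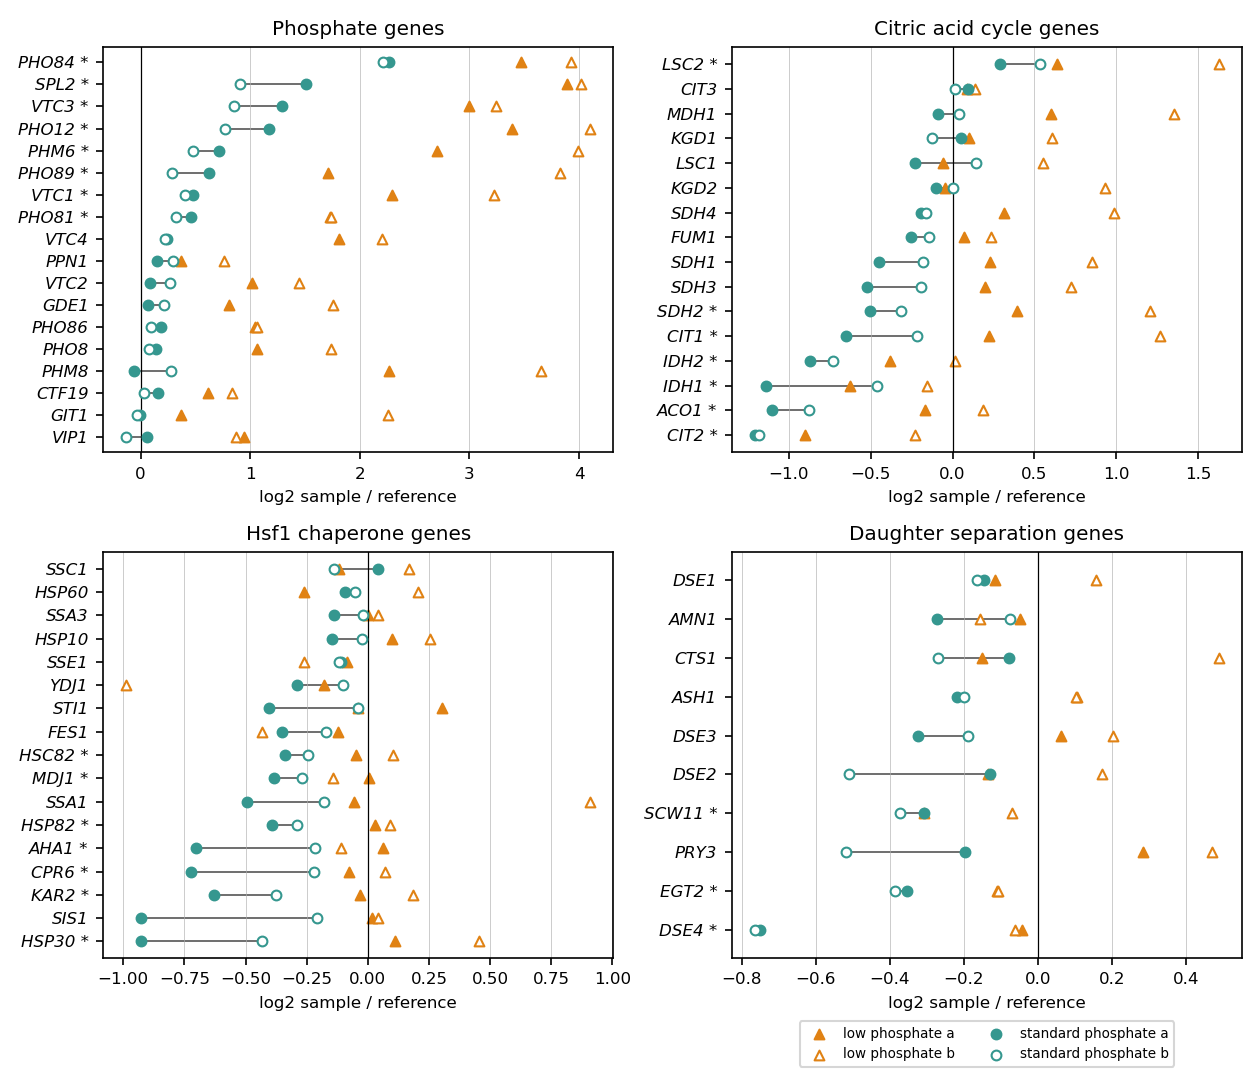
Log2 ratio of sample over reference (horizontal axis) for each measured gene of 4 lists, with circles for standard phosphate arrays a (filled) and b (open), triangles for the low phosphate arrays and an asterisk for genes that passed on the 2 standard phosphate arrays. Most phosphate genes lie above 0, and 16 of 17 genes of the chaperone list and 10 of 10 daughter separation genes lie below 0 on both standard phosphate arrays.

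Genes for the separation of daughter from mother cells formed a further set below 0. All 10 measured members were below 0 on both arrays, against 33.6% of all probes, and 3 passed as lower, against 2.4%. The median was -0.29. After spike-in normalization 4 were below 0 on both arrays and 1 passed. DSE4, which encodes a daughter-specific glucanase, was at -0.75 and -0.76 (mean -0.76 ± 0.07, adjusted p = 0.00158), EGT2 at -0.35 and -0.39 and SCW11, a glucanase-like cell wall gene, at -0.31 and -0.37. CTS1, the chitinase gene, was at -0.08 and -0.27 and did not pass. In low phosphate DSE4 was at -0.04 and -0.06. Over the alternative settings 1 to 5 members passed.

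Ribosome biogenesis genes, which code for the nucleolar factors that process and assemble ribosomal RNA, lay above 0. Of 45 measured members 38 were above 0 on both arrays, against 34.6% of all probes, and 1 below. As higher passed 11, against 6.53% of all probes, and the median was 0.17 (0.22 on array a, 0.11 on array b). Within the list DBP2, an RNA helicase gene, was highest at 1.08 and 0.52, followed by RPF2 at 0.87 and 0.34 and by KRR1 at 0.57 and 0.43. Some ribosome assembly factor genes outside the list, named at the end, had higher means than DBP2. How many of the 45 members passed ranged from 0 to 14 over the alternative settings. Ribosomal protein genes did not share this direction, with 29 of 126 above and 59 below 0 on both arrays and a median of -0.05, which lay above 0 after spike-in normalization. RPL24B was the 1 of 126 that passed, while 6.53% of all probes passed as higher. It was among the 85 ribosomal protein probes near saturation on array a. In low phosphate the median of the biogenesis genes was -0.18 for array a, against -1.29 for array b.

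Several of the 15 highest and 15 lowest named genes were outside these groups. VID24, which encodes a substrate receptor of the ubiquitin ligase that removes gluconeogenic enzymes, was at 1.03 and 1.39 (mean 1.21 ± 0.10, adjusted p = 0.00102). The open reading frame YGR079W was at 0.87 and 0.93 (mean 0.90 ± 0.07, adjusted p = 0.000963). AAD10, an aryl-alcohol dehydrogenase gene whose probe may detect other members of the family, was at -0.85 and -0.82, and its neighbour YJR154W at -0.79 and -0.83, with a dim sample channel and at least 1.54-fold lower. SFG1, which encodes a regulator of superficial pseudohyphal growth, was at -0.64 on both arrays. HXT2, the gene of a glucose transporter, passed with a mean of 0.40, and HXK2, the main hexokinase gene in glucose, with -0.38. Glycolysis and fermentation genes had a median of -0.05, and 11 of the 22 were near saturation on array a.

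**Figure D5:**
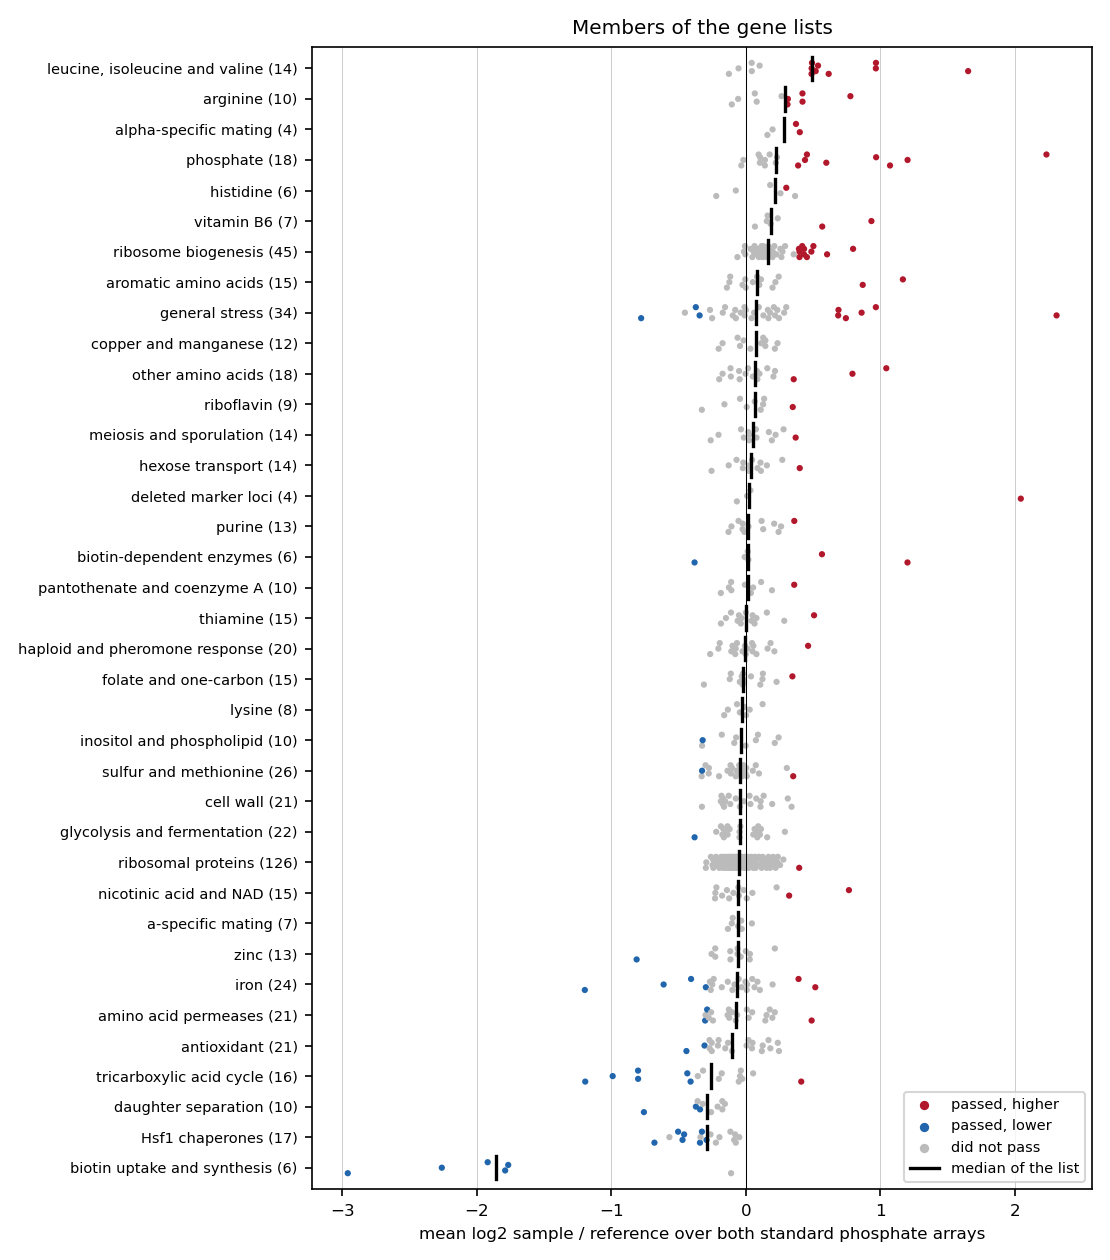
Mean log2 ratio of sample over reference on the 2 standard phosphate arrays (horizontal axis) for every measured member of the 37 gene lists, 1 list a line with its number of members and ordered by median (black tick). Colours mark genes that passed as higher or lower, and the biotin list, with a median of -1.85, is apart from all the others.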

How the data were processed

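RNA of 4 samples was hybridised with a common reference on 2-colour spotted arrays with 15552 spots, and the 2 standard phosphate arrays are reported. The deposited spot intensity values were, per the labels and methods, read with an Agilent scanner and quantified with Imagene by the authors, with no normalization. The deposited log2 ratios were made by the authors with limma 2.12.0 by print-tip loess without background subtraction and a dye-bias correction, and served as an alternative. The authors' table of fold changes and p-values per condition was not used.

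Here the intensities were background-corrected (normexp, offset 50), normalized by loess within each array (span 0.3), turned to sample over reference, and averaged over both spots of a probe. Ratios were tested against 0 with lmFit and eBayes of limma 3.58.1 in R 4.3.3, with Benjamini-Hochberg adjustment over 6388 probes, on the 2 arrays (1 residual degree of freedom, prior degrees of freedom 6.43). Moderation thus supplies most of the error. All 4 arrays in 1 fit gave 5 calls instead of 570, and both counts were known when the 2-array fit was chosen as the main one. Low minus standard phosphate was tested in the 4-array fit. The procedure was tested on simulated data.

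Of the probes, 5326 had 1 gene symbol and 1062 were unnamed here. 58 symbols were updated through RefSeq R64, and for 15 genes with several probes the brighter probe entered the lists. The members and the 37 gene lists were chosen with earlier results of these data known. Genes were named if they passed in both fits, if they were among the 15 highest or 15 lowest by the smaller absolute ratio of both arrays, or if they led their list by that value (up to 5, or more in lists of 10 or fewer). Other genes named, most of them list members that did not pass, were chosen after their values were seen. Spotted probes can detect near-identical copies, so values of multigene families are uncertain. The alternatives comprised the background correction, the normalization, the filter on dim probes, the variance model, the samples in the fit, the replicate block and leaving out each array. Across probes, the deviations of same-lettered arrays from their group means correlated at 0.277, and the letter marks the dye orientation.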

Additional observations from a re-analysis of the deposited data

Results flagged for a closer look

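LEU1 was the one gene whose ratio to the reference differed between the phosphate conditions by the test of the difference itself. The difference of low minus standard phosphate was -2.84 ± 0.09 (SE, limma on 2 and 2 arrays, adjusted p = 0.0349), with both low phosphate arrays below 0 and both standard phosphate arrays above. The adjusted p was 0.323 with the replicate block. It was 0.919 without standard phosphate array a and 0.766 without standard phosphate array b, where the difference stayed at -2.81 and -2.87. Without low phosphate array a it was 3.92e-05, and without low phosphate array b 0.000199, with a difference of -2.84 each time.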

How the results depend on the processing

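The counts of 417 higher and 153 lower probes depended on the processing. They were 128 and 45 with a normexp offset of 0, 551 and 270 without background subtraction, 288 and 94 with loess by print tip, 149 and 42 when the steps stated by the authors were followed, 249 and 93 with the deposited log2 ratios, 388 and 18 with loess on the spike-in spots, and 253 and 85 with dim probes left out. Scaling between arrays gave 378 and 131, and a trended, robust variance 437 and 198. At the study's thresholds (over 1.7-fold, unadjusted p) there were 36 and 17. On all 4 arrays there were 1 and 4. Median centring gave 0 and 0, and all 4 arrays with the replicate block also gave 0 and 0 (limma), with 87 and 682 probes on the same side at an unadjusted p under 0.05. Leaving out standard phosphate array a or b gave between 0 and 0, with 90 and 194 such probes. A lone array was then assumed to vary like the low phosphate arrays. The causes were not tested. All 90 named genes that passed kept their side of 0 under each of these alternatives in which they had a value, and 12 of them had none with dim probes left out. Of the 570 probes, 308 passed also with the deposited ratios. With the replicate block 1 of 206 differences between conditions, that of LEU1, lost its call. Without low phosphate array a 103 of these differences passed that had not, and without low phosphate array b 32. With spike-in loess the medians of the biotin (-1.68), chaperone (-0.11), daughter separation (-0.07) and citric acid cycle (-0.05) lists stayed below 0, but 2 of 17, 4 of 10 and 4 of 16 members of the last 3 were below 0 on both arrays, while those of the iron, zinc and ribosomal protein lists turned above 0. Dim signals limit low genes, since 43 of the 570 probes had a channel under 2 times the background on an array.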

Other observations

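Of the 92 probes that were higher in the fit reported and in 8 alternative settings (median centring and the removal of dim probes not counted), 70 were in none of the gene lists, and 62 of these had a gene symbol. The genes named here were chosen after their values were seen. Among them were genes of nucleolar and ribosome assembly factors. CGR1 had a mean log2 ratio of 1.03, NOP15 of 0.87, EBP2 of 0.85, LOC1 of 0.78, KRI1 of 0.77 and NOP16 of 0.76. There were also transporter genes, with the multidrug exporter gene AQR1 at 0.88 and the mitochondrial dicarboxylate carrier gene DIC1 at 0.82, and the mitochondrial aldehyde dehydrogenase gene ALD5 was at 0.79. Among the lower genes, the uncharacterized reading frames YLR297W and YDR222W were at -0.86 and -0.84.

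Of the 1062 probes without a gene symbol here, 70 (6.59%) passed as higher and 18 (1.69%) as lower, close to the shares of all probes of 6.53% and 2.4%. The ratios of SCAB003421 were 1.24 and 1.36, whereas the low phosphate arrays gave -0.17 and -0.07. SCAB002855 was at 1.27 and 0.84, and at 3.31 and 4.22 in low phosphate.

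Some calls coincided with very bright signals. Of the 161 probes near saturation on array a, 29 passed as higher and 0 as lower, against 6.53% and 2.4% of all probes. Of the 29, 23 were unnamed. The named ones included the retrotransposon reading frames YDR098C-B, YDR261C-D, YPR158C-D and YDR210C-D. A separate set of 29 probes, 25 of them unnamed, was above 1 on array a (1.03 to 1.40) and below 0.1 on array b (-0.50 to 0.03). Their values were between 0.24 and 0.48 on low phosphate array a and between 0.48 and 0.995 on array b. The part of saturation in these values was not tested.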
